A study of Mus musculus with 24 samples.

Results

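The cytosolic ribosomal protein genes encode the proteins that, with ribosomal RNA, build the large (60S, Rpl) and small (40S, Rps) subunits of the ribosome. Most of these proteins are needed in equal numbers, and their mRNAs are among the most abundant of every cell, neurons and glia included. Many of the mRNAs begin with a C followed by an unbroken run of pyrimidines, the 5′ terminal oligopyrimidine (TOP) tract, through which the kinase complex mTORC1 and the binding protein Larp1 adjust their translation together. RNA-seq counts measure the amount of mRNA and not its translation.

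The members were the protein-coding genes whose GENCODE symbol begins with Rpl or Rps followed by a number, Rplp (the ribosomal stalk) or Rpsa, with a mean of at least 10 counts over the libraries. S6 kinase genes (Rps6k), names with -ps and paralogs with names in -l were left out. Of 52636 genes counted, 79 were members, 46 of the large and 33 of the small subunit by name, and all 79 passed the filter on low counts in every comparison. A pair of names stands apart from the rest. Rps19bp1 encodes a protein that binds the ribosomal protein RPS19 and is not itself a ribosomal protein, and Rps27rt is a retrotransposed copy of Rps27. Both were kept because the rule on symbols takes them.

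The counts come from the bilateral nucleus accumbens (NAc), a ventral striatal region of the reward system, of 24 mice killed at 50 days of age, with 1 library per mouse. The labels give the strain as C57BL/6, and the study's methods give that of the parents as C57BL/6J. There were 6 control (Con) females, 6 Con males, and 6 females and 6 males exposed to MSUS, maternal separation combined with unpredictable stress of the dam on postnatal days 1 to 14. The labels and the study's methods do not state the same number of hours of daily separation. No drug was given to these animals, and neither the litter of an animal nor a usable stage of the estrous cycle could be taken from the labels, so p-values measure the spread between animals whatever their litter.

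The libraries held between 39923666 and 70575745 sense-strand counts. Ribosomal RNA was depleted and poly(A) tails were not selected, so unspliced RNA was kept. The share of uniquely mapped pairs that fell in no gene's exons on the sense strand was 31.0 to 34.8% among Con females and 36.3 to 43.9% among MSUS females, which do not overlap, and 34.7 to 40.6% and 32.2 to 44.7% among the male groups, Con first. Markers of striatal projection neurons (11 genes such as Drd1 and Pdyn) were present in every library, at a sum of 2051 to 5276 CPM (counts scaled to the total of the library), and markers of cortical excitatory neurons (10 genes such as Nrgn and Fezf2) summed to 417 to 2059. Con female 3 had the lowest striatal sum of the 24 and a cortical sum of 1972, and MSUS male 6 had 2425 and 2059. In bulk tissue, fewer cells of a type and less RNA per cell cannot be told apart.

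The TOP tract is shown here because it is the sequence feature that these mRNAs are best known to share. RefSeq start sites on GRCm38.p6 were held for 59 of the 79 members. A run of a C followed by at least 4 bases that are C or T, on the gene's own strand and starting within 5 bases of the start site, was found at 28 of those 59 members (47.5%), against 21.2% of the 27025 genes in the same table. The 30 bases from 10 before to 20 after the start site follow, with the run in capitals. They are given for the members on which the female comparison turned and for Rps6. In Rpl7a the capitals start at the edge of the positions searched, and the 5 bases before them are also C or T. Rpl29 was among the members without an entry.
Rpl28 (chr7:4792955-4792984, plus strand): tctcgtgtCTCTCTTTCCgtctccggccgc
Rpl38 (chr11:114668570-114668599, plus strand): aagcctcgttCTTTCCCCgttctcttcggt
Rpl18 (chr7:45718061-45718090, plus strand): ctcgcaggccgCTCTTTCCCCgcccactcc
Rpl7a (chr2:26910797-26910826, plus strand): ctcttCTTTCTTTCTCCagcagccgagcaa
Rps18 (chr17:33955646-33955675, minus strand): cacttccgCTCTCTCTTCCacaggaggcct
Rps6 (chr4:86857348-86857377, minus strand): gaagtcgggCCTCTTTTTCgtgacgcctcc
Rpl22 (chr4:152325716-152325745, plus strand): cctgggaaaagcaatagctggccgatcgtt
Rplp0 (chr5:115559457-115559486, plus strand): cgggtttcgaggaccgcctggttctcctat
Rpl23 (chr11:97782420-97782449, minus strand): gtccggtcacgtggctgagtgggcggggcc
Rps13 (chr7:116334171-116334200, minus strand): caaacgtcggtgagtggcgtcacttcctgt
Rpl22 (here at 1 of its 2 listed starts), Rplp0, Rpl23 and Rps13 have no such run starting within 5 bases of any listed start. This says only that the run is not at the positions searched. The printed bases of Rplp0 and Rps13 hold such letters farther downstream. Of the 9 members with an entry that were lower in MSUS females (below), 5 had the run. The median log2 fold change in females was -0.09 for the 28 members with the run and -0.08 for the 31 without it.

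Ribosomal protein mRNAs took 0.740 to 0.947% of all sense counts in a library. Levels are given per length, as mean normalized counts (counts divided by DESeq2 size factors) per kb of the principal annotated transcript. The median member had 6225 per kb, and 69 of the 79 lay between 2000 and 20000. The highest were Rps29 (26150), Rplp1 (21310), a protein of the stalk that recruits elongation factors, and Rps15 (19000). The lowest were Rpl24 (30.2), Rps27rt (60.6) and Rpl13a (556). The exons of Rpl24 and Rpl13a overlap those of the readthrough genes Gm28037 and Gm45713 on the same strand, over 47.0% and 35.4% of their length for all overlapping genes, and STAR drops pairs that fall on exons of more than 1 gene. The counts of both, and of Rps27rt in its near-identical family, are therefore uncertain as levels. In all, 27 members have exons that overlap those of another gene on the same strand, so pairs can be dropped for them as well. Processed copies make the other levels uncertain too, since 59 of the members have at least 1 annotated copy by name, with 288 copies in all and up to 23 for 1 member, and pairs that map to several places were not counted.

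**Figure D1:**
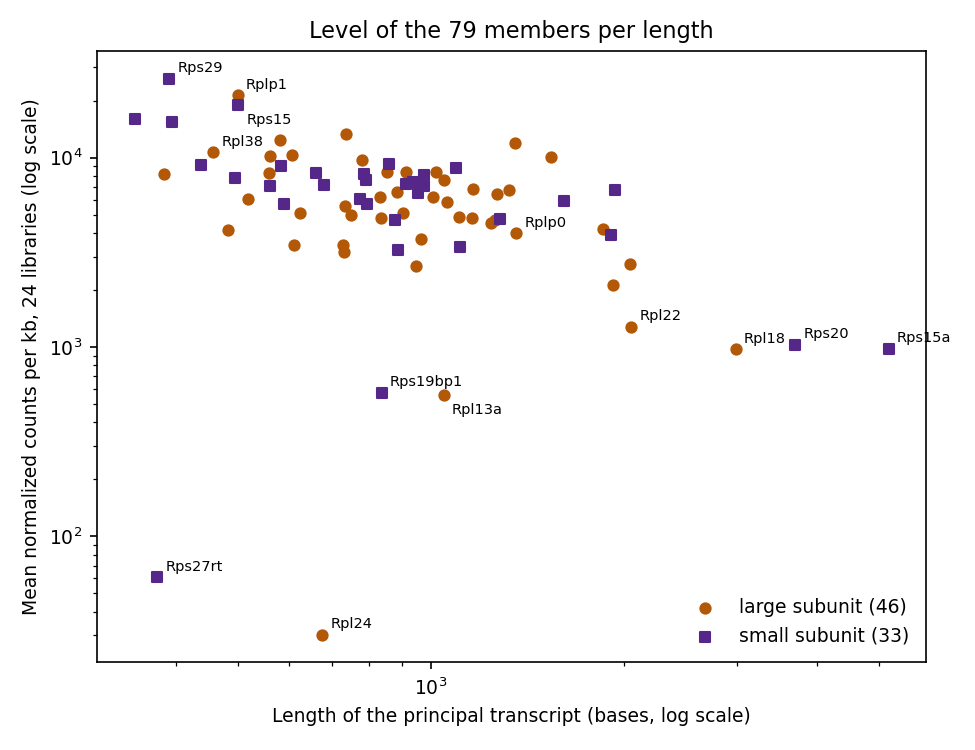
Mean normalized counts per kb of principal transcript over 24 libraries (vertical axis, log scale) against the length of that transcript in bases (horizontal axis, log scale) for the 79 members, with circles for the large and squares for the small subunit. Rpl24 and Rps27rt lie far below the other members, and members with a long annotated principal transcript such as Rps15a and Rps20 lie below most.

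Among the landmark proteins, Rplp0, the base of the stalk, had 3974 normalized counts per kb, Rplp2, the partner of Rplp1, had 3702, Rpsa, the small-subunit protein also known as the laminin receptor, had 6721, and Rps6, the target of S6 kinase, had 4654. Over all 24 libraries the median member varied by 6.43% (coefficient of variation), and 77 of 79 varied by less than 10%. The exceptions were Rpl24 and Rps27rt, which had 20.5 and 22.7 normalized counts on average.

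The members moved together from library to library. Of the 77 members with a mean of at least 100 counts, 77 were above their own 24-library mean (log2 scale) in Con female 4, 76 in Con female 1 and 74 in MSUS male 4, the 3 highest libraries, against 0 in MSUS female 1, 1 in MSUS male 1, 2 in Con male 1, 2 in MSUS female 3 and 3 in Con female 3, the 5 lowest. The summed share was 0.885, 0.891, 0.740, 0.926, 0.863 and 0.881% in Con females 1 to 6, and 0.770, 0.850, 0.836, 0.909, 0.888 and 0.847% in MSUS females 1 to 6. It ranged from 0.779 to 0.904% in Con males and from 0.774 to 0.947% in MSUS males. All 4 groups overlapped, with means of 0.864 ± 0.064% (Con) and 0.850 ± 0.048% (MSUS) for females and 0.857 ± 0.049% (Con) and 0.856 ± 0.061% (MSUS) for males (SD, n = 6 each). The 2 subunits kept an almost fixed ratio, with large-subunit counts 1.34 to 1.39 times small-subunit counts in every library.

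**Figure D2:**
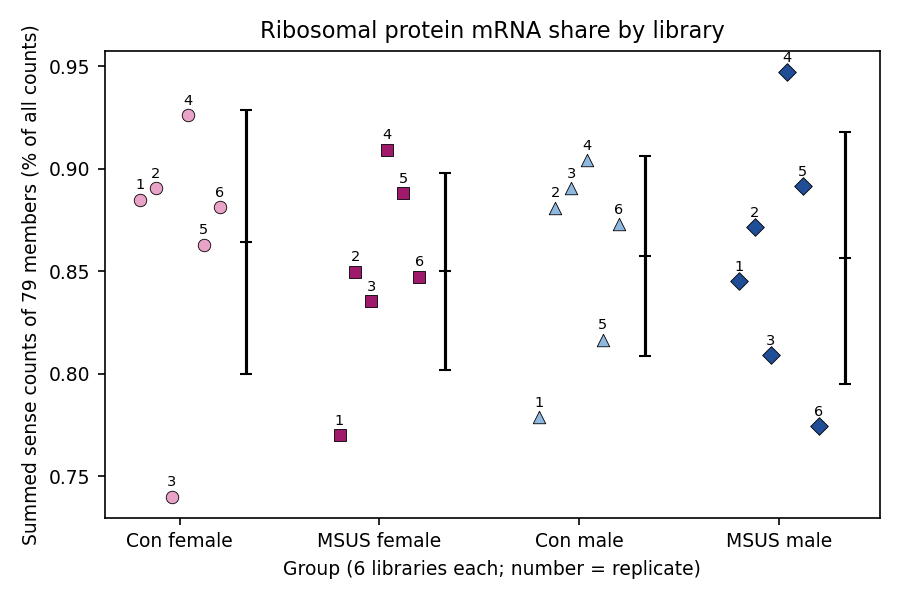
Summed sense counts of the 79 members as a percentage of all sense counts of the library (vertical axis) in the 4 groups, 1 point per library with its replicate number, and the group mean ± SD beside the points. The groups overlap, and Con female 3, at 0.740%, is the lowest of the 24 libraries.

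MSUS was first compared with Con in the 12 females. The fitted log2 fold change was slightly below 0 for most members, and few of them passed the test singly. By edgeR's quasi-likelihood test at a Benjamini-Hochberg adjusted p under 0.10, 10 of 79 members fell (12.7%) and 1 rose, Rpl24. Over all 20571 genes tested, 11.9% fell and 13.1% rose, so the share of members called lower was close to that of all genes. The direction was not: 76 of 79 members had a log2 fold change below 0, against 50.6% of all genes, and the median was -0.08 (it decreased by 5.28%), with quartiles of -0.11 and -0.05. The median of all genes was -0.003. The members share animals and libraries and moved together, so they are not 79 independent observations, and no test was made of the members as a group.

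Of the 10, 8 were proteins of the large subunit and 2 of the small. Rpl22, an RNA-binding protein of the large subunit, fell most. It had 2819, 2941, 3089, 2634, 2608 and 2591 normalized counts in Con females 1 to 6 and 2572, 2397, 2382, 2385, 2418 and 2411 in MSUS females 1 to 6. Every MSUS female was below every Con female, with log2 fold change -0.19, SE 0.047 and adjusted p 0.0188. In Con and MSUS males the medians of Rpl22 were 2593 and 2583.

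Rplp0 had 5898, 6530, 5286, 5877, 5685 and 5620 normalized counts in the Con females and 4902, 4950, 4909, 5614, 5167 and 5196 in the MSUS females. The groups overlapped through Con female 3 and MSUS female 4, and the log2 fold change was -0.18 (SE 0.051, adjusted p 0.0328). Rpl28 had 5670, 6079, 5362, 5772, 5847 and 5719 in the Con females and 4721, 4941, 4945, 5360, 5272 and 5235 in the MSUS females. The highest MSUS female lay just below the lowest Con female, Con female 3, and the log2 fold change of Rpl28 was -0.17 (SE 0.040, adjusted p 0.0148). Rpl22 and Rpl28 were the 2 members without overlap, and 3.41% of all genes tested had every MSUS female below every Con female.

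Rpl38 is a small protein of the large subunit known for its part in skeletal patterning. It had 5277, 5482, 4716, 5405, 5337 and 5092 normalized counts in the Con females and 4425, 4580, 4579, 4898, 4853 and 4682 in the MSUS females. Only Con female 3 of the Con group lay within the MSUS range, and the log2 fold change was -0.16 (SE 0.041, adjusted p 0.0239). Rpl18 had 3060 ± 119 normalized counts in Con against 2771 ± 110 in MSUS females (SD, n = 6 each), with log2 fold change -0.14 and adjusted p 0.0227 by edgeR. The other 5 that fell were Rps13, Rpl29, Rpl7a, Rpl23 and Rps18, with log2 fold changes of -0.13, -0.13, -0.13, -0.13 and -0.12 and adjusted p between 0.0299 and 0.0781.

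Rpl24, the member that rose, had 12 to 23 counts in the Con females and 17 to 33 in the MSUS females before normalization. Its log2 fold change was 0.52 (SE 0.20, adjusted p 0.0860), the groups overlapped, and the call was not made by DESeq2. The call rests on the few pairs counted for a gene that overlaps Gm28037. Rpl35a (log2 fold change 0.06, adjusted p 0.507) and Rps12 (0.01, adjusted p 0.959) were the other 2 members above 0.

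Among the landmarks, Rps6 had 4237 ± 281 normalized counts in Con and 3949 ± 245 in MSUS females, with log2 fold change -0.10 and adjusted p 0.206. Rplp1 and Rplp2, which sit as pairs on Rplp0 in the stalk, had log2 fold changes of -0.05 (adjusted p 0.657) and -0.10 (adjusted p 0.288), and that of Rpsa was -0.03 (adjusted p 0.781). The 4 members on the X chromosome, Rps4x, Rpl36a, Rpl39 and Rpl10, had -0.10, -0.08, -0.04 and -0.03, none past the threshold, with adjusted p from 0.157 to 0.772. The plot of fold changes by member shows the gradient from Rpl22 to Rpl35a.

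**Figure D3:**
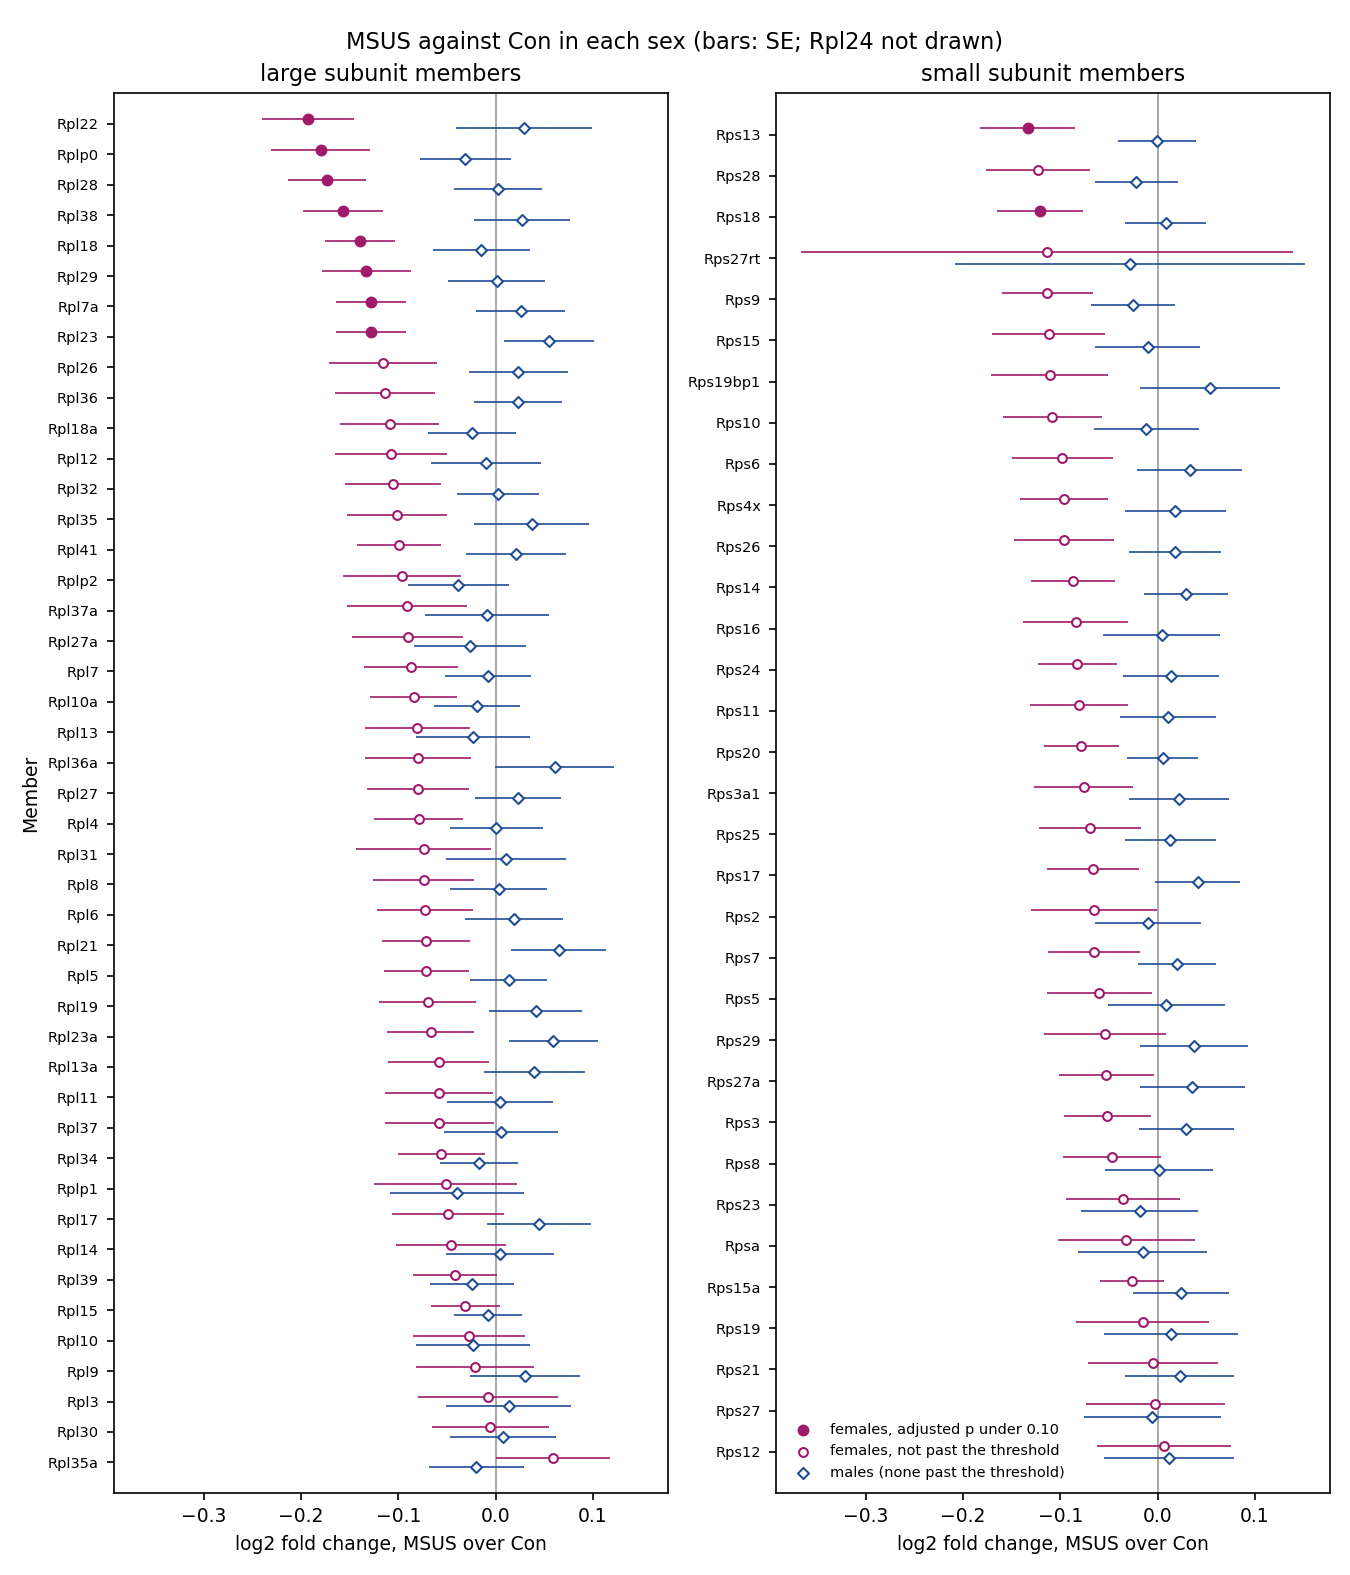
Log2 fold change of MSUS over Con (horizontal axis, bars are SE) for 78 members, Rpl24 not drawn, with circles for females (filled when past an adjusted p of 0.10) and diamonds for males. In females nearly all members lie left of 0, and in males they lie on both sides of it.

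The size of this result depended on single libraries, most on Con female 3. Without Con female 3, 39 of 79 members fell and 1 rose at the same threshold, while the share of all genes that fell was 10.8%, and the median log2 fold change was -0.11. All 11 members called with every animal were among these 40. Without each of the other females the count past the threshold went down to 7 at the lowest. The median was -0.05 without MSUS female 1, with 68 members below 0, and -0.06 without Con female 4, with 70. Within library numbers 1 to 12 and 13 to 24, with 3 Con and 3 MSUS females each, the median difference over 77 members was -0.07 and -0.08 on the log2 scale, with 72 and 76 members lower.

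The share of pairs in no gene moved with the groups. Since the shares of Con and MSUS females do not overlap, MSUS and this share cannot be told apart in females. With it as a covariate, edgeR called 0 members and 0 of all genes, 0 members had an unadjusted p under 0.05, and the median log2 fold change of the members was 0.05. In a fit of all 24 animals, where the share varies within the male groups, the median for the female effect was -0.08 without and -0.01 with the share, and again 0 members were called with it. With the cortical marker score as a covariate, 21 members fell, the median was -0.15, and 3.12% of all genes fell. Rpl22 and Rplp0, the members with the largest falls, were not past the threshold in that fit. Strand also mattered: counts without regard to strand gave 28 members lower and 1 higher, and 13.9% of all genes lower.

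**Figure D4:**
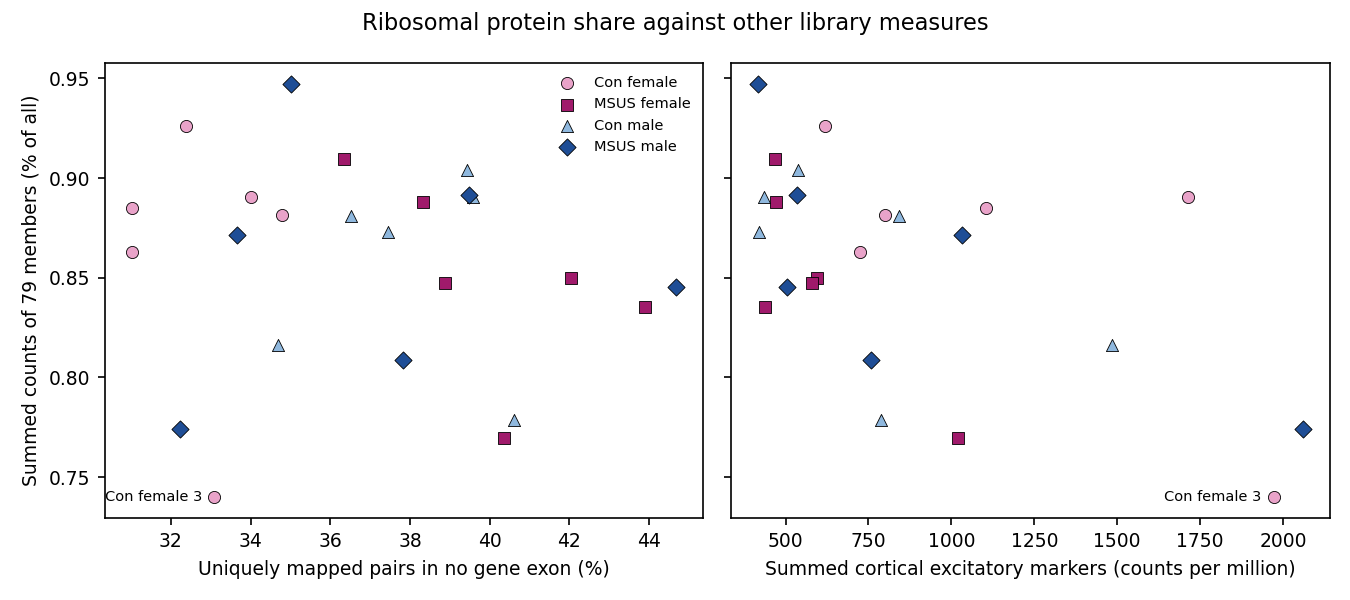
Summed share of the 79 members (vertical axis, % of all sense counts) against the share of uniquely mapped pairs in no gene exon (left, %) and against summed markers of cortical excitatory neurons (right, CPM), 1 point per library. Con and MSUS females are separated along the left horizontal axis, and Con female 3 and MSUS male 6 have both the highest cortical sums and low shares of members.

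Other markers moved between the female groups. Of 7 oligodendrocyte markers, 5 fell and all 7 were below 0 (median log2 fold change -0.25), with summed levels of 3992 to 5833 CPM in Con and 3771 to 4657 in MSUS females. Of the 10 cortical markers 2 fell, Nrgn (-0.65, adjusted p 0.0283) and Fezf2 (-1.82, adjusted p 0.0931), with summed levels of 620 to 1972 in Con and 437 to 1020 in MSUS females. Of 6 astrocyte markers 2 fell, and none of the 11 striatal, 5 microglial, 5 endothelial and 3 oligodendrocyte precursor markers passed the threshold. Nuclear long RNAs moved the other way: 7 of 9 rose, Meg3 most among the 3 with the smallest p (log2 fold change 0.47, adjusted p 0.00304), and their summed level was 16330 to 19000 CPM in Con and 20780 to 24010 in MSUS females, without overlap. Apart from the fits with the cortical score given above, the part of these cell types and RNAs in the members' difference was not tested. With that score as a covariate, 1 oligodendrocyte marker and 0 astrocyte markers fell.

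The genes that make and use ribosomes were described in the same fit from lists. In that fit 11.9% of all genes fell and 13.1% rose, and 3.12% fell with the cortical marker score as a covariate. Of 30 ribosome assembly genes, 8 fell and 2 rose (median log2 fold change -0.03), and 1 fell and 1 rose with the cortical marker score as a covariate. Nop10, a part of the particle that modifies uridines in ribosomal RNA, fell (-0.16, adjusted p 0.0198), as did Eif6, which keeps the subunits apart until the large one is mature (-0.19, adjusted p 0.0122), while Mdn1, the giant ATPase of large-subunit assembly, rose (0.21, adjusted p 0.00894). Of 13 genes of RNA polymerase I and its factors, which make the ribosomal RNA, 1 fell and 3 rose. Polr1d, a subunit shared with polymerase III, fell (-0.17, adjusted p 0.0409), and Taf1a (0.21, adjusted p 0.0231) and Taf1d (0.24, adjusted p 0.0224), parts of the initiation factor SL1, rose. None passed the threshold with the cortical score.

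Translation factors with TOP mRNAs had a median like that of the members, -0.08, and 6 of 20 fell (10 without Con female 3, 6 with the cortical score). Eef2, the translocase of elongation, had 47600 ± 1345 normalized counts in Con and 42430 ± 1464 in MSUS females (SD, n = 6 each), with log2 fold change -0.16 and adjusted p 0.0119 by edgeR. Eif3h and Eif2s3x, of the initiation factors eIF3 and eIF2, fell by 0.11 (adjusted p 0.0172) and by 0.14 (adjusted p 0.0187) on the log2 scale. Rack1, a scaffold protein of the small subunit whose symbol is outside the rule, had 5039 ± 215 and 4630 ± 157 and fell by 0.12 (adjusted p 0.0397). Of 24 other initiation and elongation factors 8 fell, 3 with the cortical score, again with a median of -0.08. They included Eef1a2, the elongation factor of neurons and muscle (-0.25, adjusted p 0.0105), Eif5a (-0.16, adjusted p 0.0105) and Eif3c (-0.13, adjusted p 0.0137).

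Of 18 genes of TOP and mTORC1 regulation, 3 fell and 2 rose, and 1 fell and 0 rose with the cortical score. The shares, 16.7% lower and 11.1% higher, were near those of all genes (11.9% and 13.1%), and the median log2 fold change was -0.02. The 3 genes with the smallest p follow. Larp1, which binds the TOP tract, fell by 0.12 (adjusted p 0.0408), Eif4ebp1, a repressor of cap-dependent initiation with low counts here, fell by 0.60 (adjusted p 0.0622), and Rps6ka1, a kinase of ribosomal protein S6, fell by 0.12 (adjusted p 0.0644).

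The mitochondrial ribosome is built from a separate set of nuclear genes. Of 77 Mrpl and Mrps genes tested, 24 fell and 0 rose by edgeR (26 and 0 by DESeq2), and 62 were below 0, with a median log2 fold change of -0.08. The medians of the cytosolic and mitochondrial genes were thus close. The share called lower with all animals was 31.2% of the mitochondrial and 12.7% of the cytosolic genes, beside 11.9% of all genes. The spread of the cytosolic genes was narrower in the plot of shares. Mrps24 (-0.24, adjusted p 0.00692), Mrpl12 (-0.22, adjusted p 0.00624) and Mrpl28 (-0.22, adjusted p 0.0115) had the smallest p. The order of these shares turned with the fit. Without Con female 3, 23 of 77 mitochondrial and 39 of 79 cytosolic genes fell, beside 10.8% of all genes. With the cortical score as a covariate 10 of 77 and 21 of 79 did, beside 3.12% of all genes. With the share of pairs in no gene as a covariate 0 were called, as for all other lists.

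**Figure D5:**
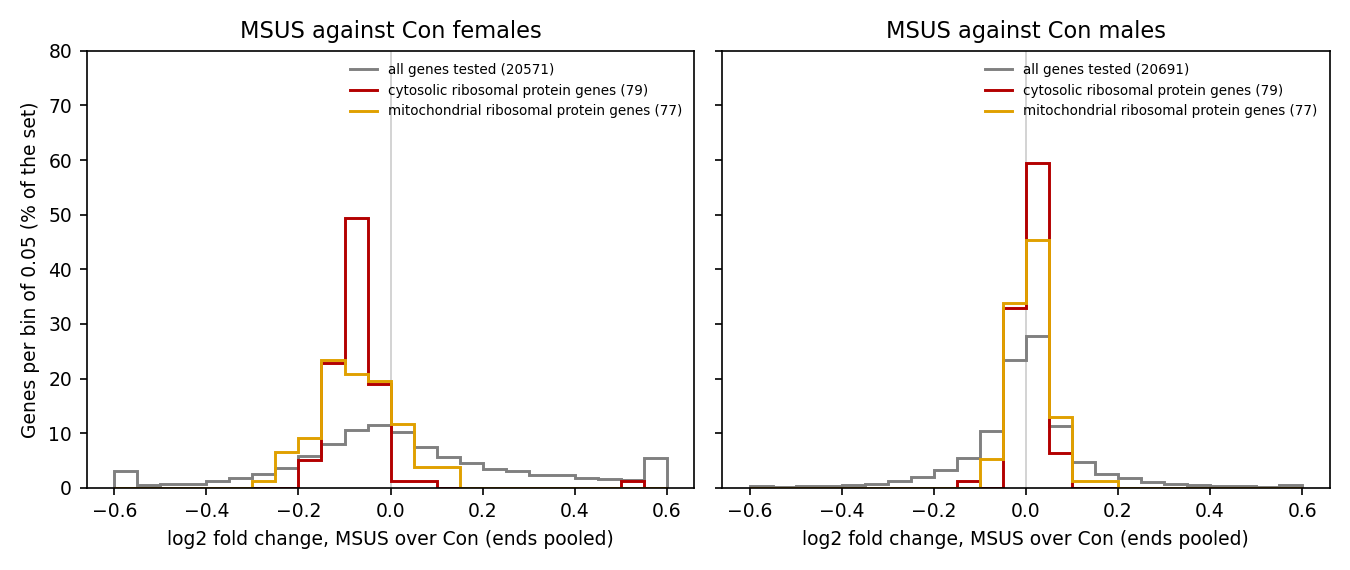
Share of genes (vertical axis, % of each set) by log2 fold change of MSUS over Con in bins of 0.05 (horizontal axis, values beyond the ends pooled in the end bins), in females (left) and males (right), for all genes tested, the 79 cytosolic and the 77 mitochondrial ribosomal protein genes. In females both sets are shifted below 0 within a wide distribution of all genes, and in males both are centred near 0.

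Paralogs and copies of the members were counted beside them. Fau encodes a ribosomal protein fused to a ubiquitin-like protein, and its log2 fold change in females was -0.12 (adjusted p 0.190). Rps27l (-0.19, adjusted p 0.0743) and Rpl7l1 (-0.09, adjusted p 0.0906) fell, beside -0.002 and -0.09 for Rps27 and Rpl7, neither past the threshold. Rpl22l1, a paralog that Rpl22 is known to repress, had 1603 ± 197 normalized counts in Con and 1714 ± 91.5 in MSUS females (log2 fold change 0.10, adjusted p 0.352, edgeR), beside the fall of Rpl22. Rps4l had -0.16 (adjusted p 0.319), beside -0.10 for Rps4x. Rpl3l, the paralog of Rpl3 in muscle, and Rpl36al had means of 20.4 and 25.5 in Con females and no call, Rpl39l and Rps12l1 had means under 2 in every group and were not tested, and Rpl10l, known from testis, had 0 counts in every library.

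Of the 288 processed copies, 45 passed the filter on low counts, and 7 rose and 0 fell by edgeR (7 and 0 by DESeq2, which tested 213). The share that rose by edgeR, 15.6%, was close to the 13.1% of all genes, while 11.9% of all genes fell. Rpl13-ps1 had 22.8 ± 4.74 normalized counts in Con and 37.4 ± 5.98 in MSUS females (log2 fold change 0.72, adjusted p 0.0128, edgeR). Rps15a-ps6 rose by 0.67 (adjusted p 0.0211) and Rpl10-ps6 by 0.69 (adjusted p 0.0423). With the cortical score as a covariate 1 copy rose. Their parents Rpl13, Rps15a and Rpl10 had -0.08, -0.03 and -0.03, none past the threshold. Reads of near-identical copies can be split between genes, so these values are uncertain.

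In the 12 males, MSUS was compared with Con in the same way. By edgeR 0 of 79 members and 0% of 20691 genes passed the threshold, 0 members had an unadjusted p under 0.05, and DESeq2 called 0 members. The median log2 fold change was 0.01, with 52 members above 0 and 27 below, and the median SE was 0.052. Of all genes, 48.3% were below 0, and their median was 0.003. The smallest p belonged to Rpl21 (log2 fold change 0.06, SE 0.049), Rpl23a (0.06, SE 0.046) and Rpl23 (0.06, SE 0.046), each with an adjusted p of 1.0 by edgeR. The 10 members that fell in females had log2 fold changes between -0.03 (Rplp0) and 0.06 (Rpl23) in males. Within the 2 sets of library numbers the median difference in males was 0.008 and 0.005.

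The difference between the sexes in the effect of MSUS was tested as the group-by-sex interaction over all 24 animals. By edgeR 0 of 79 members and 0% of 21500 genes passed, and 14 members had an unadjusted p under 0.05. DESeq2 called 1 member and 408 of all genes. The median interaction of the members was -0.09 on the log2 scale, with 77 members below 0. Of all genes, 50.9% were below 0, and their median was -0.005. With the share of pairs in no gene as a covariate the members' median was -0.01. In that fit 49 members were below 0 and 0 had an unadjusted p under 0.05. With the cortical score the members' median was -0.16, with 50 members at an unadjusted p under 0.05. In both fits edgeR called 0 members. The share of all genes at that unadjusted p is not given here, so the counts of 14 and 50 members have no background beside them. Rpl23 (-0.19, SE 0.056), Rpl28 (-0.18, SE 0.057) and Rpl38 (-0.19, SE 0.062) had the smallest p, each with an adjusted p of 0.200 by edgeR. MSUS male 1 had the highest share of pairs in no gene (44.7%). Without it, edgeR called 5 of 79 members, all lower, and 3031 of all genes in either direction, so many other genes gained a call as well. The share of all genes called lower in that fit is not given here. With all animals, edgeR thus did not show the effect in females to differ from that in males for any member at the threshold used.

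In Con animals, females were compared with males. These females are the same libraries as in the first comparison, so the 2 are not independent. Of all 20641 genes, 2.64% passed the threshold by edgeR, and 0 members did, while 11 members had an unadjusted p under 0.05 and DESeq2 called 1. The share of all genes at that unadjusted p is not given here. Of the members, 77 were higher in females and 2 lower, with a median log2 difference of 0.07. Of all genes, 46.4% were lower in females, and their median was 0.013. Rps19bp1, the binding protein, had 517 ± 24.5 normalized counts in the females and 455 ± 34.8 in the males (SD, n = 6 each), with log2 fold change 0.19 and adjusted p 0.130 by edgeR. Rpl38 had 0.13 (adjusted p 0.159) and Rpl28 0.11 (adjusted p 0.188). Without Con female 3, 2 members were called higher in females. The share of pairs in no gene, 31.0 to 34.8% in these females and 34.7 to 40.6% in these males, overlapped little. With it as a covariate the members' median was 0.03 and 0 members had an unadjusted p under 0.05. In that fit edgeR called 11 of all genes in place of 544.

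In MSUS animals, 0.135% of 20714 genes differed between the sexes and 0 members did by edgeR, with 2 members at an unadjusted p under 0.05 and 0 called by DESeq2. The median log2 difference of females over males was -0.03 (-0.08 with the cortical score). Rpl23 (-0.11, adjusted p 0.649), Rpl22 (-0.15, adjusted p 0.667) and Rpl35a (0.10, adjusted p 0.667) had the smallest p. The X-linked members were not past the threshold between the sexes in Con animals, with log2 differences of 0.07 for Rpl39, 0.06 for Rps4x, 0.06 for Rpl36a and 0.04 for Rpl10, as the autosomal members were not.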

How the data were processed

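NAc RNA of 24 mice was sequenced as read pairs after ribosomal RNA depletion. Per the study's methods and the submitters' processing notes, adapters were trimmed and pairs aligned to mm10 with STAR 2.6.1b. The authors deposited STAR's gene counts of pairs with a single mapping position, not normalized, with and without regard to strand. The sense-strand counts were used. GENCODE M21 (GRCm38) held 52489 of the 52636 gene identifiers. Depth was 39923666 to 70575745 counts per library.

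Each comparison was fitted on the animals compared, and the interaction on all animals, with edgeR 4.0.16 in R 4.3.3 (filterByExpr with a minimum count of 10, TMM, robust quasi-likelihood F test, Benjamini-Hochberg adjustment over all genes, threshold 0.10). SE is the log2 fold change over the square root of F. The study modelled estrous stage in females, which was left out here because the stage labels could not be used. Normalized counts were divided by DESeq2 1.42.0 size factors. Level per kb used the APPRIS principal transcript. Start sites are those of RefSeq. The spliced share used as a covariate came from splice and read totals in the study's supplementary tables. The fits were tested on simulated data, and tables and plots were made with Python 3.11.15. In 60 within-group pairs of libraries, chi-square per gene was at least 6.34, so none was a copy of another.

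The members and lists were chosen with earlier results of these data known. Named genes were, by rule, the members with the largest falls and rises past the threshold in females (5 each), the 3 with the lowest p in every other comparison, the 3 highest and lowest levels, X-linked members, landmarks, a fusion gene, paralogs, and 3 genes of each other list by p in females. Others were named after their values were seen. Alternatives tried were DESeq2, its size factors in edgeR, unfiltered genes, genes with at least 10 counts in all animals, unstranded counts, a replicate block, library set, spliced share, share of pairs in no gene or cortical score as a covariate, offsets for length and GC, an adjusted p under 0.05, and each animal left out. Fits of all 24 animals were added after seeing the data. Some genes of these lists are not reported here.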

Additional observations from a re-analysis of the deposited data

Results flagged for a closer look

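In 116 groups of 6 values (summed shares, subunit ratios and the named members in each group), 13 held a library farther from the rest than Dixon's criterion for 6 samples allows, where chance flags about 1 in 20. Of the 13, 9 were Con female 3, the library with the lowest sum of striatal markers. Its summed share of members was 0.740%, where the next Con female had 0.863%. Its normalized counts were 8910 for Rplp1, 8582 for Rps15, 6208 for Rpl10, 3153 for Rplp2, 10720 for Rpsa, 3706 for Rps6, 3113 for Rps13 and 3818 for Rpl29, each the lowest of the 6 Con females, and these values are not independent. The other 4 were MSUS female 1 for Rpl22 (2572, the highest of its group), Con male 1 for Rpl18 (2633) and Rpl23 (5684), both the lowest, and MSUS male 4 for Rpl24 (27.2, the highest).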

How the results depend on the processing

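In females, 11 members passed the threshold and the median log2 fold change was -0.08. Members past the threshold numbered 7 at an adjusted p under 0.05, 29 with counts without regard to strand, 21 with the cortical marker score, and 0 with the spliced share or the share of pairs in no gene as a covariate, in females alone or in all 24 animals, added after seeing the data. The spliced share and the share in no gene left 0 of all genes past the threshold, and 0 members at an unadjusted p under 0.05. The median turned to 0.13 with the spliced share and to 0.050 with the share in no gene. Leaving out each female gave medians of -0.11 to -0.05 and 7 to 40 members past the threshold, with 40 without Con female 3 and 7 without Con female 1, 2 or 4 or MSUS female 2 or 3. In Con animals, 1 member passed between the sexes with DESeq2 and 1 without regard to strand, and 0 to 2 with an animal left out, with 2 without Con female 3. For the interaction, DESeq2 gave 1 member, leaving out an animal gave 0 to 5, with 5 without MSUS male 1, and the median with the spliced share was -0.0037. The cause of these changes was not tested. For the interaction and for females against males in Con, the medians with the share in no gene were -0.0114 and 0.0276, with 0 members at an unadjusted p under 0.05. No other alternative moved a count of members past the threshold by over 1.5 times. The other medians moved by less than the spread between libraries, an SD of 0.082 on the log2 scale. That SD is about as large as the female median itself, so it could not flag the loss of that difference. With the cortical score the female median was -0.15, a change smaller than that SD.

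The other lists were recounted in females with DESeq2, without Con female 3 and with 3 of the covariates. With the spliced share or the share in no gene, 0 genes passed in every list. Counts that fell moved by over 1.5 times without Con female 3 for TOP translation factors (6 to 10), cortical markers (2 to 1) and astrocyte markers (2 to 1), and with the cortical score for ribosome assembly (8 to 1), RNA polymerase I (1 to 0), other translation factors (8 to 3), TOP and mTORC1 regulation (3 to 1), mitochondrial ribosomal proteins (24 to 10), paralogs (2 to 0), oligodendrocyte (5 to 1), cortical (2 to 0), astrocyte (2 to 0) and microglial (0 to 1) markers. Counts that rose moved with the cortical score for ribosome assembly (2 to 1), RNA polymerase I (3 to 0), TOP and mTORC1 regulation (2 to 0), processed copies (7 to 1) and cortical markers (0 to 1), and for TOP and mTORC1 regulation also without Con female 3 and with DESeq2 (2 to 1 each). The cortical score is the mean log2 CPM of the cortical markers themselves, so their own changes with it follow from how it was made.

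Named genes that turned above 0 in females with the spliced share were Rplp0 (0.060), Rpl38 (0.0022), Rpl18 (0.0090), Rpl21 (0.097), Rpl23a (0.12), Rps19bp1 (0.14), Rps29 (0.19), Rplp1 (0.22), Rps15 (0.13), Rps27rt (0.38), Rpl13a (0.14), Rps4x (0.096), Rpl36a (0.088), Rpl39 (0.042), Rpl10 (0.19), Rplp2 (0.12), Rpsa (0.21), Rps6 (0.10), Rack1 (0.017), Fau (0.11), Rps13 (0.018), Rpl29 (0.031), Rpl7a (0.0067) and Rps18 (0.066). With the share in no gene they were Rpl21 (0.032), Rpl23a (0.075), Rps19bp1 (0.035), Rps29 (0.13), Rplp1 (0.14), Rps15 (0.041), Rps27rt (0.36), Rpl13a (0.064), Rps4x (0.028), Rpl36a (0.063), Rpl39 (0.064), Rpl10 (0.086), Rplp2 (0.00057), Rpsa (0.11) and Rps18 (0.023). In all 24 animals with the share in no gene they were Rpl21 (0.0079), Rps19bp1 (0.028), Rps29 (0.0077), Rplp1 (0.012) and Rpl39 (0.0057), and with the spliced share Rpl21 (0.016), Rps19bp1 (0.034), Rps29 (0.0065), Rplp1 (0.020), Rpl10 (0.010), Rpsa (0.0027) and Rps6 (0.020). Rpsa also turned with offsets for length and GC (0.025) and without MSUS female 1 (0.0048, lowest without Con female 3 at -0.087), and Rps27rt without regard to strand (0.13), without Con female 1 (0.00036) and without MSUS female 1 (0.021, lowest without Con female 3 at -0.21). Rpl35a turned to -0.050 with the cortical score.

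With the replicate block, 9 members passed in females, all lower, and the median was -0.08. Deviations of same-numbered animals correlated between -0.37 and 0.40. Same-numbered animals are also in the same set of library numbers, and the labels do not say whether they share anything else. Of the 10 members that fell, Rps13, Rpl29 and Rps18 kept the call in 2, 6 and 4 of 12 fits with a female left out, and the other 7 in all 12. With the cortical score, Rpl22 and Rplp0 lost the call. The median SE of a member in females was 0.052 on the log2 scale.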
